A study of Saccharomyces cerevisiae with 12 samples.

Results

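Dbp7 is a DEAD-box RNA helicase of budding yeast (Saccharomyces cerevisiae), encoded by DBP7 (YKR024C), that acts on early precursors of the large ribosomal subunit. To compare cells that hold an inactive Dbp7 protein with cells that hold none, the 3 libraries of Δdbp7 + Dbp7DQGD were set against the 3 libraries of Δdbp7 + EV, chosen by their titles from the 12 libraries of the series. Both groups carry the DBP7 deletion in a BY4741 background. The Δdbp7 + Dbp7DQGD strain has a low-copy plasmid from which Dbp7DQGD is made under the DBP7 promoter, a form with a glutamate-to-glutamine exchange in its DEGD motif that removes ATPase activity, and the Δdbp7 + EV strain has the plasmid without an insert. The other 6 libraries come from Δdbp7 + Dbp7WT, the deletion strain with wild-type Dbp7 on the plasmid, and from WT + EV, with 3 libraries each. All cultures were growing exponentially, and the series text calls the samples biological triplicates. The deposited tables hold no DBP7 transcript, so neither the deletion nor the plasmid could be checked in the libraries themselves.

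Most 2′-O-methyl groups of ribosomal RNA (rRNA) are placed by box C/D small nucleolar ribonucleoproteins, in which a guide snoRNA pairs with the rRNA and directs the methyltransferase Nop1 to 1 nucleotide. Pairing and release of guides take place while the precursor folds, and RNA helicases are known to unwind such duplexes. RiboMeth-seq (RMS) reads the methyl group from protection against alkaline hydrolysis. A methylated nucleotide gives few read ends compared with its neighbours. The RMS score is 1 minus the read ends at a nucleotide over the weighted mean of the 6 nucleotides on either side, so a score near 1 means that nearly all copies are methylated. It was read at 55 sites, of which 18 belong to 18S and 37 to 25S rRNA. Libraries held 5580519 to 10361153 read ends in Δdbp7 + Dbp7DQGD and 7498768 to 8009776 in Δdbp7 + EV, and the flanking mean at the 55 sites had a median of 1099 read ends and was never below 269.

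The nucleotides on which the comparison turned are given here with 12 nucleotides on either side, 5′ to 3′, as the deposited tables spell them, with the scored nucleotide in capitals. The first 3 are 25S U898 and 18S A436, the sites with the smallest p-values, and 25S C2948, which together with A436 passed when each strain was compared within its own set of libraries.
25S U898: cgaucgucgaauUuggguauagggg
18S A436: cagcaggcgcgcAaauuacccaauc
25S C2948: agggaacgugagCuggguuuagacc
The next 4 had the largest differences in score in either direction.
18S G1572: uugcucuucaacGaggaauuccuag
25S U2421: guugagcuugacUcuaguuugacau
18S C414: cggcuaccacauCcaaggaaggcag
25S A807: guugggacccgaAagauggugaacu
18S A420 is shown because it lies inside the flank of C414, so that each of both sites enters the score of the other.
18S A420: ccacauccaaggAaggcagcaggcg

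No site passed the test between cells with inactive Dbp7 and cells without Dbp7. In limma, fitted over all 12 libraries with Benjamini-Hochberg adjustment over the 55 sites, 0 of 55 sites passed an adjusted p of 0.05 (0.0%), and 2 (3.64%) had an unadjusted p under 0.05, 25S U898 and 18S A436. The quasi-likelihood test of edgeR on the read ends at the same sites also called 0 (0.0%), with 2 sites at an unadjusted p under 0.05. Scores were higher in Δdbp7 + Dbp7DQGD at 20 sites and lower at 35, the median difference was -0.0054 and the median absolute difference 0.0123. The 95% interval of the difference lay within 0.1 of 0 at 39 sites and within 0.2 of 0 at 50 sites. For the remaining sites a difference of more than 0.1 lies inside the interval, so the data do not show that the strains are alike there. As a background level, 25S G2395, a position without known methylation, scored 0.129 ± 0.071 in Δdbp7 + Dbp7DQGD and 0.096 ± 0.128 in Δdbp7 + EV (SD, n = 3 each). Scores are cut off at 0, which raises this mean. Library 3 of Δdbp7 + EV, with 1386 read ends there over a flanking mean of 1055, entered as 0.

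**Figure D1:**
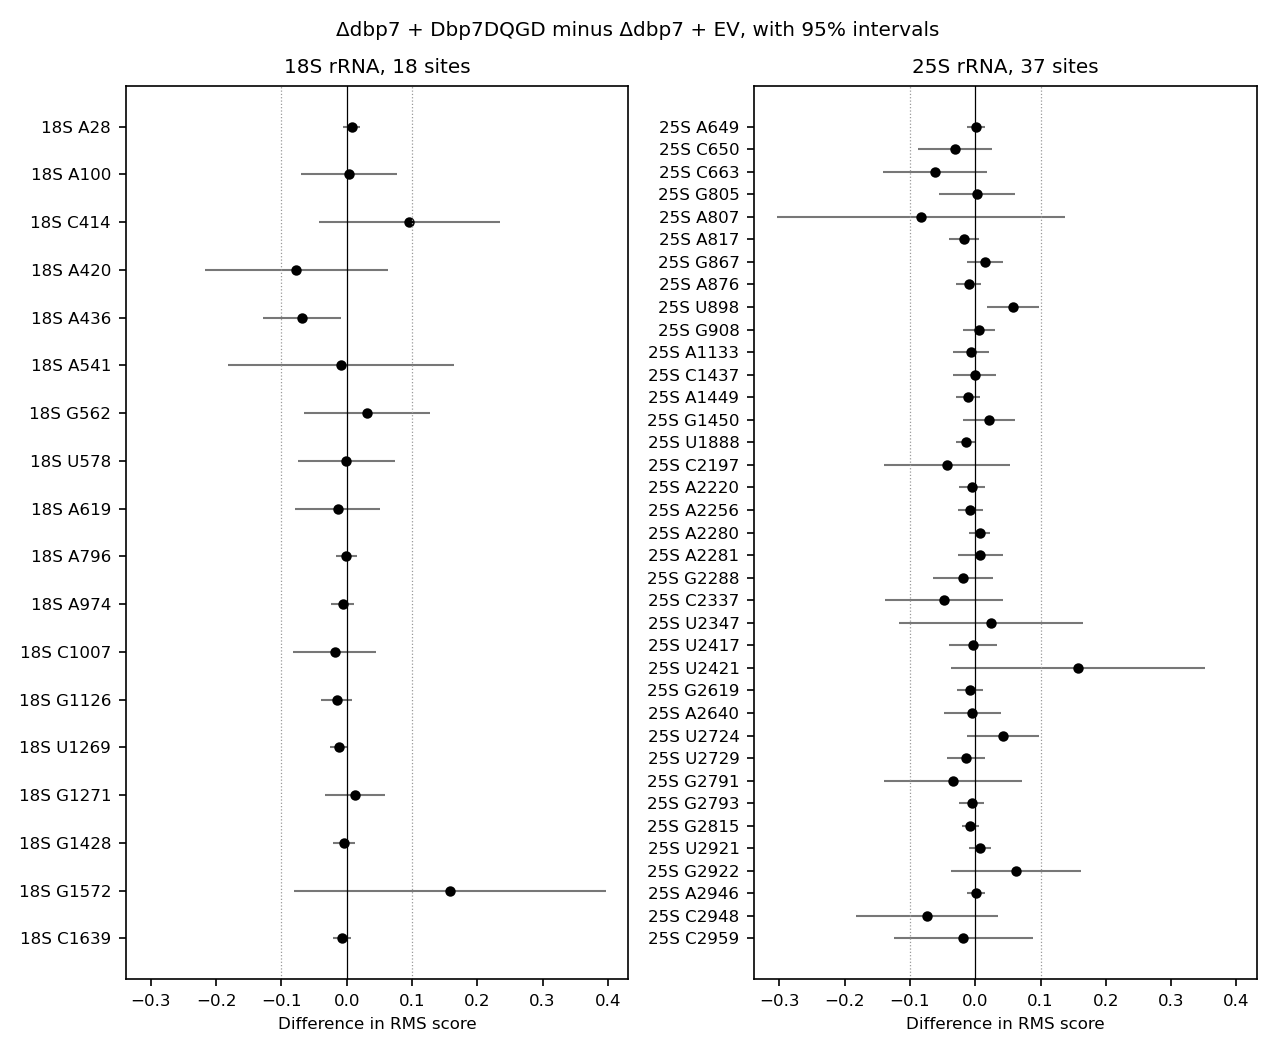
Difference in RMS score, Δdbp7 + Dbp7DQGD minus Δdbp7 + EV, at the 18 sites of 18S rRNA (left panel) and the 37 of 25S rRNA (right panel), from the 5′ end at the top. Points are the fitted difference and lines its 95% interval; dotted lines mark 0.1 on either side of 0, and the intervals of 39 of the 55 sites lie between them.

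25S U898, the target of snR40, had the smallest p. Its score was 0.773, 0.787 and 0.749 in the Δdbp7 + Dbp7DQGD libraries, against 0.695, 0.718 and 0.721 in the Δdbp7 + EV libraries. All 3 libraries with inactive Dbp7 lay above all 3 without Dbp7. The difference of 0.0586 ± 0.0177 (SE, 95% interval 0.0187 to 0.0984) did not pass after adjustment (limma, adjusted p = 0.481). Both groups stayed below the strains with active Dbp7, where U898 averaged 0.848 in Δdbp7 + Dbp7WT and 0.830 in WT + EV. The difference was positive in the 5′ read ends (0.0304) and in the 3′ read ends (0.0784). In the 5′ score the groups overlapped. Library 3 of Δdbp7 + EV had 0.797 there, against 0.780, 0.770 and 0.801 in Δdbp7 + Dbp7DQGD.

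18S A436, the target of snR87, was the other site at an unadjusted p under 0.05. Its score was 0.945, 0.880 and 0.841 in Δdbp7 + Dbp7DQGD, against 0.949, 0.966 and 0.955 in Δdbp7 + EV. The groups did not overlap, but library 1 with inactive Dbp7 lay just below the lowest library without Dbp7. The difference of -0.0682 ± 0.0267 (SE, 95% interval -0.128 to -0.0081) did not pass (limma, adjusted p = 0.683). Most of it lay in the 3′ read ends, where the scores differed by -0.156, against -0.0160 in the 5′ read ends. Without library 3 of Δdbp7 + Dbp7DQGD the difference was -0.0444.

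The groups did not overlap at 6 of the 55 sites (10.9%). Complete separation of 3 against 3 libraries has an exact permutation p of 0.1, so a share near this level is expected without any difference. Of the 6 sites, 2 were higher in Δdbp7 + Dbp7DQGD, 25S U898 and 25S G2922, and 4 were lower (18S A420, A436, U1269 and C1639). At U1269 and C1639 the shift was small, -0.0121 and -0.0068, on scores of 0.958 to 0.982. 25S G2922, which the protein methyltransferase Spb1 modifies without a guide RNA, scored 0.916, 0.919 and 0.906 in Δdbp7 + Dbp7DQGD, against 0.786, 0.895 and 0.872 in Δdbp7 + EV. Its difference of 0.0628 did not pass (limma, adjusted p = 0.683), was 0.0302 without library 1 of Δdbp7 + EV, and in the 5′ read ends alone the sign turned (-0.0085).

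**Figure D2:**
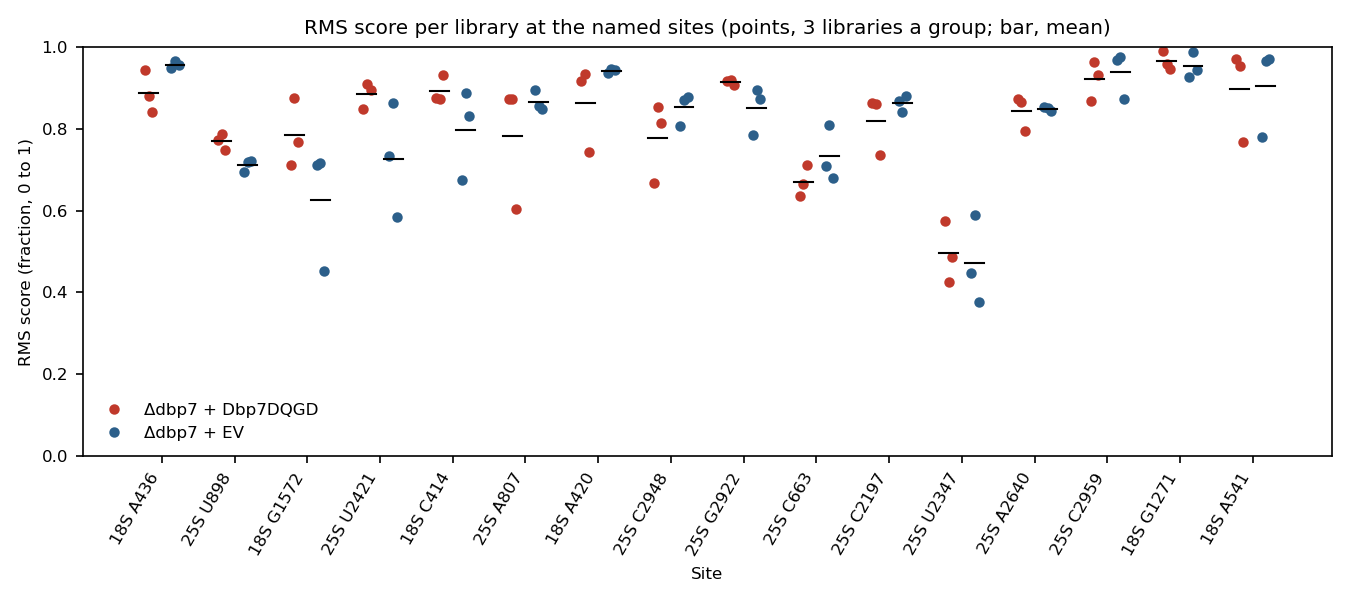
RMS score (fraction from 0 to 1) of each library at 16 named sites, with Δdbp7 + Dbp7DQGD in red to the left of Δdbp7 + EV in blue; points are libraries, 3 a group, and bars their means. At U898 and G2922 all red points lie above the blue ones, at A436 and A420 below them, and at the other sites shown the groups overlap.

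The 6 sites that the study singled out for a change without Dbp7 were compared next. These sites were chosen on these same samples. The study tested WT + EV against both compared groups there, so neither group is independent of the choice. It describes the change with Dbp7DQGD as similar to that without Dbp7. Of the 6, 2 were higher in Δdbp7 + Dbp7DQGD and 4 lower, with a median difference of -0.0238, against -0.0054 over all 55 sites, and none passed in limma. Beside U898 they comprise C663 (guide snR58), C2197 (snR76), U2347 (snR65), A2640 (snR68) and C2948 (snR69). C663 scored 0.637, 0.666 and 0.711 in Δdbp7 + Dbp7DQGD, against 0.709, 0.810 and 0.679 in Δdbp7 + EV, a difference of -0.0619 (95% interval -0.141 to 0.0176), or -0.0233 without library 2 of Δdbp7 + EV. It had the largest difference of all sites in the 5′ read ends, -0.0820. U2347 was the least methylated of the 6, with 0.574, 0.426 and 0.487 in Δdbp7 + Dbp7DQGD against 0.447, 0.590 and 0.377 in Δdbp7 + EV. The groups overlapped over nearly their whole range, and the interval of the difference, -0.116 to 0.165, allows a change in either direction.

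A2640 averaged 0.844 ± 0.043 in Δdbp7 + Dbp7DQGD and 0.849 ± 0.005 in Δdbp7 + EV (SD, n = 3 each), with an interval of the difference of -0.0484 to 0.0400. C2197 averaged 0.820 ± 0.073 in Δdbp7 + Dbp7DQGD and 0.863 ± 0.020 in Δdbp7 + EV, and the lower mean rested on library 3, at 0.736, since libraries 1 and 2 scored 0.863 and 0.860. Without that library the difference was -0.0015. C2948 scored 0.667, 0.853 and 0.815 in Δdbp7 + Dbp7DQGD, against 0.807, 0.871 and 0.879 in Δdbp7 + EV. Its difference of -0.0741 had an interval of -0.183 to 0.0348, and without library 1 of Δdbp7 + Dbp7DQGD it was -0.0185. 25S C2959, a neighbouring site guided by snR73, differed by -0.0180 (interval -0.125 to 0.0890), and 18S G1271, which snR40 guides together with 25S U898, by 0.0123 (interval -0.0334 to 0.0580).

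By subunit, 12 of the 18 sites of the 18S rRNA and 23 of the 37 of the 25S rRNA were lower in Δdbp7 + Dbp7DQGD, with median differences of -0.0053 and -0.0054. The mean over the 18S sites was of opposite sign, 0.0042, since G1572 and C414 lay far above the rest. In the 5′ read ends 15 of the 18 sites of the 18S rRNA were lower (median -0.0061), beside 18 of 37 in the 25S rRNA (median 0.00044) and 33 of all 55 (median -0.0036). Of the 40 sites with a mean score of at least 0.9, where the cap at 1 leaves little room, 35 had an interval within 0.1 of 0, as did 4 of the 15 sites with a mean score under 0.9. Along the 25S rRNA, all 4 sites from A1133 to G1450 and 5 of the 6 from U2417 to U2729 had such an interval, as did 4 of the 8 from G2791 to C2959.

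The 5 largest differences belonged to 18S G1572, 25S U2421, 18S C414, 25S A807 and 18S A420 (limma, adjusted p = 0.683 to 0.745), and each was larger in the 3′ than in the 5′ read ends. At U2421, the target of snR78, the score was 0.849, 0.909 and 0.896 in Δdbp7 + Dbp7DQGD, against 0.733, 0.863 and 0.585 in Δdbp7 + EV. Library 3 without Dbp7 had 405 read ends of the 3′ kind there, against 88 and 195 in libraries 2 and 1. The score from 5′ read ends lay between 0.908 and 0.931 in Δdbp7 + Dbp7DQGD and between 0.885 and 0.931 in Δdbp7 + EV, a difference of 0.0144, against 0.275 in the 3′ read ends. Without library 3 of Δdbp7 + EV the difference at U2421 was 0.0863, against 0.157 with it.

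18S G1572, the target of snR57, had scores of 0.711, 0.876 and 0.768 in Δdbp7 + Dbp7DQGD, against 0.712, 0.717 and 0.452 in Δdbp7 + EV. Again library 3 without Dbp7 was the low one, with 813 read ends of the 3′ kind. The difference of 0.158 (interval -0.0807 to 0.397) was 0.0705 without that library and turned to -0.0247 in the 5′ read ends. At A807 the library that stood apart was one with inactive Dbp7. Its scores were 0.873, 0.873 and 0.605 in Δdbp7 + Dbp7DQGD, against 0.895, 0.857 and 0.847 in Δdbp7 + EV. Without library 3 of Δdbp7 + Dbp7DQGD the difference at A807 was 0.0066 instead of -0.0828. A420, guided by snR52, showed the same pattern, with 0.916, 0.934 and 0.743 in Δdbp7 + Dbp7DQGD, against 0.936, 0.945 and 0.944 in Δdbp7 + EV, and its difference was -0.0167 without library 3 of Δdbp7 + Dbp7DQGD. C414, guided by U14, was low in library 1 without Dbp7, with 0.876, 0.873 and 0.932 in Δdbp7 + Dbp7DQGD, against 0.675, 0.887 and 0.830 in Δdbp7 + EV, and its difference was 0.0347 without that library.

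4 of these 5 sites, all but G1572, are among the 5 sites at which the deposited overview of group means differs from the mean of the libraries by more than 0.001. The fifth is 18S A541, where library 3 with inactive Dbp7 (0.767) and library 1 without Dbp7 (0.780) were low. The legend of the overview mentions a barcode correction at some sites without naming them in the text, and whether it was made at these 5 was not tested. With the overview means the difference was -0.0147 at U2421, -0.0365 at C414, 0.0011 at A807 and -0.0135 at A420.

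Over all sites, the 3′ read ends gave the larger absolute difference at 39 of 55, with a median of 0.0228, against 0.0079 in the 5′ read ends. Libraries of 1 group also spread more in the 3′ score. The median SD was 0.0376 in Δdbp7 + Dbp7DQGD and 0.0233 in Δdbp7 + EV, against 0.0100 and 0.0096 in the 5′ score. With the 5′ read ends alone, 53 of 55 intervals lay within 0.1 of 0, 0 sites passed in limma and 7 (12.7%) had an unadjusted p under 0.05. The groups did not overlap in the 5′ score at 7 sites (12.7%), again near the share expected without any difference. Of these 7 sites, 1 was higher in Δdbp7 + Dbp7DQGD (25S U2921) and 6 were lower (18S A100, A974 and G1572, 25S U1888, C2948 and C2959). The largest of these was A100, with 5′ scores of 0.797, 0.812 and 0.785 in Δdbp7 + Dbp7DQGD, against 0.832, 0.875 and 0.818 in Δdbp7 + EV (limma, adjusted p = 0.242).

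**Figure D3:**
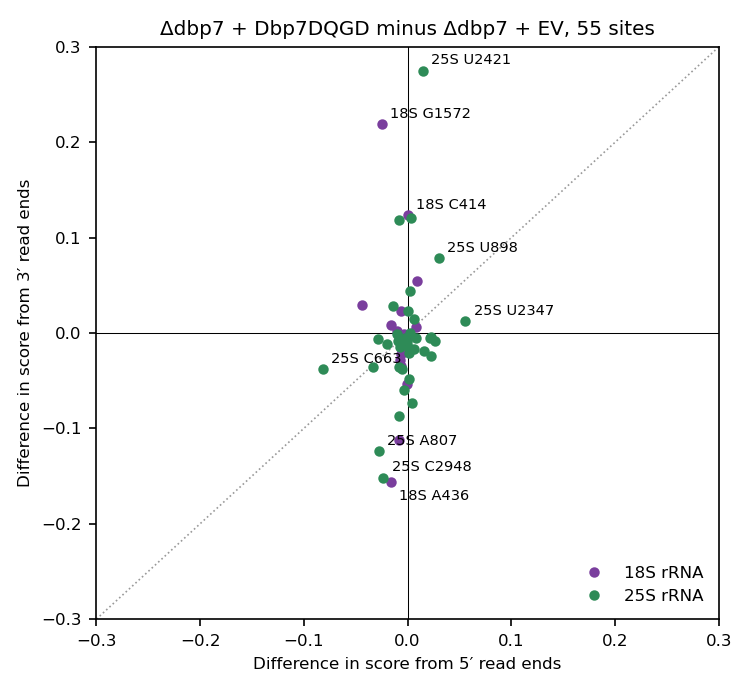
Difference in the score computed from 5′ read ends (horizontal) and from 3′ read ends (vertical), Δdbp7 + Dbp7DQGD minus Δdbp7 + EV, for the 18S sites (purple) and the 25S sites (green), with equality as a dotted line. Points stretch along the vertical axis to 0.275 at U2421, while the horizontal spread stays within 0.0820 of 0.

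Libraries with the same replicate number deviated together within 2 pairs of strains. The deviations of the 55 scores from their group means correlated at 0.878, 0.839 and 0.930 between Δdbp7 + Dbp7DQGD and Δdbp7 + Dbp7WT libraries of the same number, and at 0.888, 0.855 and 0.892 between Δdbp7 + EV and WT + EV libraries. Between the compared groups these values were -0.113, -0.0345 and -0.0506 (a description over 55 sites that share their libraries). The libraries that stood apart came in such pairs. At A807 library 3 of Δdbp7 + Dbp7WT (0.573) was low as was library 3 of Δdbp7 + Dbp7DQGD (0.605). At U2421 library 3 of Δdbp7 + EV scored 0.585 and library 3 of WT + EV 0.615. The main limma fit treats the 12 libraries as independent, so its p-values and intervals do not take these correlations into account. On the 6 compared libraries alone, 0 sites passed and 38 intervals lay within 0.1 of 0. The labels do not say what the number marks. Inactive Dbp7 and no Dbp7 thus lie in different sets of libraries, and for a difference between them strain and set cannot be told apart.

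Each strain was therefore also compared within its own set, an alternative chosen after seeing these correlations. The quantity was Δdbp7 + Dbp7DQGD minus Δdbp7 + Dbp7WT, less Δdbp7 + EV minus WT + EV, with same-numbered libraries of a set as a block. It passed at 2 of 55 sites in limma (3.64%), both negative. At 18S A436 it was -0.122 ± 0.0100 (SE, adjusted p = 0.000528) and at 25S C2948 -0.187 ± 0.0197 (adjusted p = 0.00123), and with 5′ read ends alone the same 2 sites passed, at -0.108 and -0.172. At both sites the value came mostly from the empty-vector set. A436 averaged 0.889 in Δdbp7 + Dbp7DQGD and 0.906 in Δdbp7 + Dbp7WT, and 0.957 in Δdbp7 + EV and 0.853 in WT + EV. C2948 averaged 0.778 in Δdbp7 + Dbp7DQGD and 0.818 in Δdbp7 + Dbp7WT, and 0.852 in Δdbp7 + EV and 0.706 in WT + EV. In the 5′ score A436 averaged 0.940, 0.956, 0.957 and 0.864 in the same order of groups, and C2948 0.880, 0.898, 0.903 and 0.750. There only WT + EV stood apart. The direct 5′ difference between inactive and no Dbp7 was -0.0160 at A436 and -0.0235 at C2948, and neither passed. The within-set quantity also holds any difference between Δdbp7 + Dbp7WT and WT + EV. At the other 53 sites it did not pass, and at U898, U2421, G1572 and C414 it was 0.0414, 0.0277, 0.0054 and -0.0017.

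**Figure D4:**
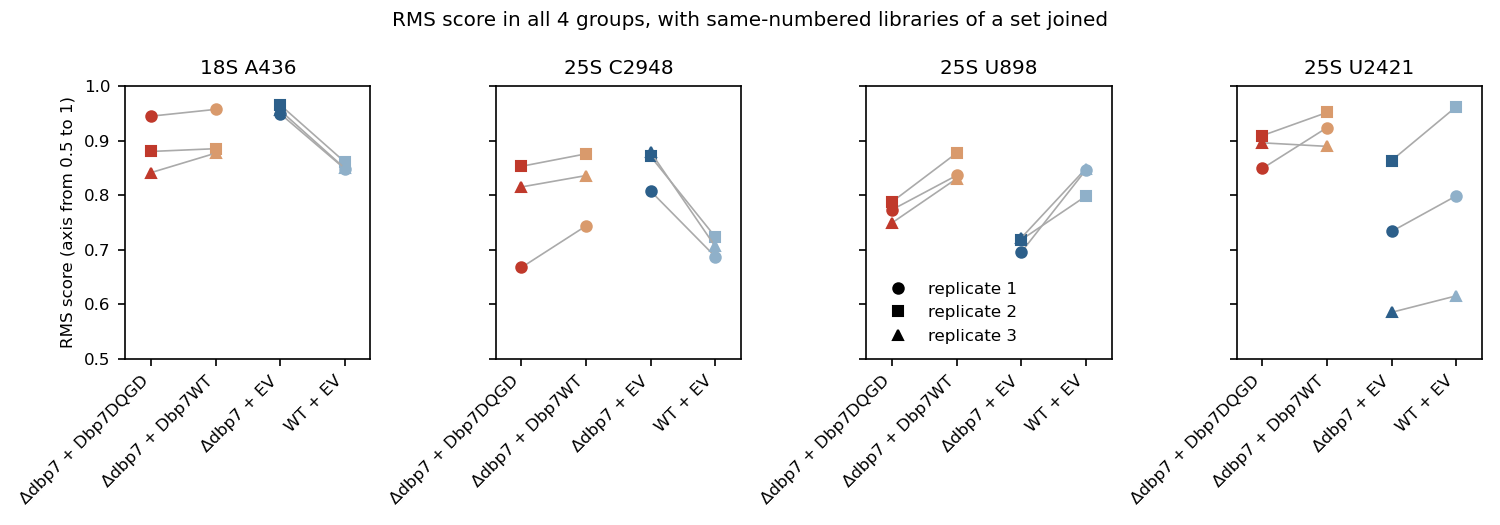
RMS score (axis from 0.5 to 1) at 18S A436, 25S C2948, 25S U898 and 25S U2421 in all 4 groups, with same-numbered libraries of a set joined by lines and the replicate number given by the marker. At A436 and C2948 the lines run upward from Δdbp7 + Dbp7DQGD to Δdbp7 + Dbp7WT and drop from Δdbp7 + EV to WT + EV; at U2421 the replicates of the empty-vector set lie far apart in the same order in both strains.

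Read ends were also compared along the rRNAs, at 5318 nucleotides of 18S (1788), 25S (3384) and 5.8S (146). Each had a flanking mean of at least 50 read ends in every library, and the listed sites were not left out. edgeR called 0 of 5318 (0.0%), and 367 (6.9%) had an unadjusted p under 0.05. DESeq2 called 8 (0.15%), 4 with more read ends relative to the flank in Δdbp7 + Dbp7DQGD and 4 with fewer. The strongest was 5.8S G133, with read ends of 1.75, 1.79 and 2.09 times the flanking mean in Δdbp7 + Dbp7DQGD, against 1.32, 1.28 and 1.20 times in Δdbp7 + EV (log2 fold change 0.57, DESeq2 adjusted p = 0.000218, edgeR adjusted p = 0.408). The other 3 with more read ends were 25S G727, 25S G2575 and 18S G948, with log2 fold changes of 0.75, 0.97 and 0.54. Those with fewer were 25S U2186, 25S C2572, 25S G2007 and 18S G1673, at -0.59, -0.83, -0.82 and -0.54. G2575 and C2572 lie in each other's flank and differed with opposite signs.

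At all 8 nucleotides the means of Δdbp7 + Dbp7WT and WT + EV differed in the same direction as those of the compared groups. At G133 the mean was 1.88 in Δdbp7 + Dbp7DQGD and 1.27 in Δdbp7 + EV, and likewise 1.84 in Δdbp7 + Dbp7WT and 1.39 in WT + EV. At C2572 it was 1.18 in Δdbp7 + Dbp7DQGD and 2.09 in Δdbp7 + EV, beside 1.10 in Δdbp7 + Dbp7WT and 1.66 in WT + EV. When strains were compared within sets, 1 of the 5318 nucleotides passed in edgeR (0.0188%), 18S A436. It is a listed site that passed in limma from the same libraries, so this is not a separate finding. At some nucleotides 1 kind of read end differed: at G2007 the 3′ read ends relative to their flank were 0.293-fold in Δdbp7 + Dbp7DQGD over Δdbp7 + EV, and the 5′ read ends 0.945-fold.

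The balance of RNAs was read from the read ends of each RNA over those of the 18S rRNA in the same library. In these shares a higher value and less 18S rRNA cannot be told apart. The ratio of 25S to 18S rRNA was 1.495, 1.437 and 1.348 in Δdbp7 + Dbp7DQGD, against 1.396, 1.567 and 1.392 in Δdbp7 + EV. The groups overlapped (log2 difference -0.02 ± 0.07, SE), and both lay below the 2.02 to 2.19 of the 6 libraries with active Dbp7.

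The 5.8S rRNA pairs with the 25S rRNA in the large subunit. Its ratio to 18S was 0.351, 0.377 and 0.427 in Δdbp7 + Dbp7DQGD, against 0.695, 0.621 and 0.470 in Δdbp7 + EV, and the groups did not overlap. The ratio was 0.653-fold (log2 difference -0.61 ± 0.19, SE), with an exact permutation p of 0.1, the smallest that 3 against 3 libraries can give (two-sided, adjusted p = 0.233 over 7 ratios). The 5.8S to 25S ratio was likewise 0.235, 0.262 and 0.317 in Δdbp7 + Dbp7DQGD, against 0.498, 0.396 and 0.337 in Δdbp7 + EV. Between the strains with active Dbp7 the 5.8S to 18S ratio averaged 0.254 in Δdbp7 + Dbp7WT and 0.326 in WT + EV, with overlap. This is a log2 difference of -0.35, and the difference between inactive and no Dbp7 less this one was -0.27 (no test). Along the 5.8S rRNA the read ends were spread alike, with 46.3 to 49.3% in the middle of 3 parts of about equal length in Δdbp7 + Dbp7DQGD and 44.6 to 48.6% in Δdbp7 + EV.

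The spliceosomal small nuclear RNAs U1 and U2 were higher in Δdbp7 + Dbp7DQGD in all 3 libraries. Per 10000 read ends of 18S rRNA, U1 had 11.79, 11.95 and 10.73 read ends in Δdbp7 + Dbp7DQGD, against 10.43, 9.202 and 10.39 in Δdbp7 + EV. U2 had 33.6, 33.3 and 34.6 in Δdbp7 + Dbp7DQGD, against 29.3, 29.6 and 31.0 in Δdbp7 + EV. The folds were 1.15 for U1 and 1.13 for U2, each with an exact permutation p of 0.1, the smallest possible (adjusted p = 0.233). With the 5.8S rRNA these are 3 of the 7 ratios whose groups did not overlap (42.9%). U4, U5 and U6 overlapped, at 1.00, 0.861 and 0.759-fold. Less the difference between Δdbp7 + Dbp7WT and WT + EV, the log2 differences were 0.43 for U1, 0.24 for U2 and 0.39 for U5, the last of opposite sign to the direct -0.22 (no test). In the strains with active Dbp7 all 5 of these RNAs were far lower, U1 averaging 3.85 in Δdbp7 + Dbp7WT and 4.52 in WT + EV. U14 and both U3 copies had 0 to 6 read ends a library and were not compared.

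**Figure D5:**
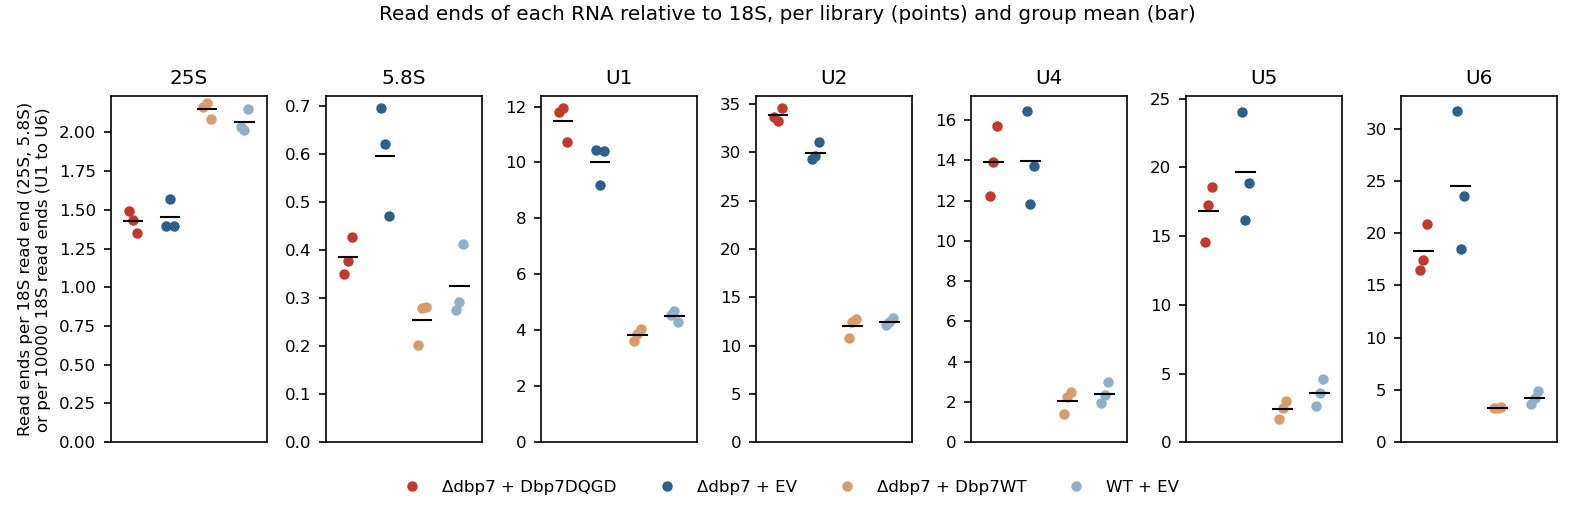
Read ends of 7 RNAs relative to 18S rRNA in each library (points, 3 a group) with group means (bars), per 18S read end for 25S and 5.8S and per 10000 for U1 to U6, with Δdbp7 + Dbp7DQGD at the left, then Δdbp7 + EV, Δdbp7 + Dbp7WT and WT + EV. The first 2 groups overlap for 25S, U4, U5 and U6 and do not for 5.8S, U1 and U2.

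The distribution of read ends along the 18S and 25S rRNAs was compared over 10 regions. The groups overlapped in all 10 regions (0 of 10 apart, 0.0%), and the smallest exact permutation p was 0.2 (0.1 is the smallest that 3 against 3 can give, so no region could pass), for the part of the 25S rRNA that holds the sites U1888 to U2347. The largest difference was in the 3′ part of the 18S rRNA, from U1269 to C1639 and beyond, with 39.1, 37.3 and 34.6% of its read ends in Δdbp7 + Dbp7DQGD, against 36.2, 41.2 and 36.9% in Δdbp7 + EV.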

How the data were processed

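The authors fragmented total RNA under alkali, took fragments of 20 to 40 nucleotides and sequenced them on an Ion Proton. Per the submitters' processing notes, reads were trimmed with cutadapt 2.0 and aligned with Bowtie2 2.3.4.1. The genome build is not given in the sources used here. The authors deposited, for each library, raw counts of 5′ and 3′ read ends per nucleotide of 11 RNAs, and a fraction methylated (score C), which recomputed from the counts within 5e-10. A further 24 columns of other scores were not used. An overview sheet holds the deposited group means as a fraction.

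Sites were compared with limma 3.58.1 (R 4.3.3), 1 mean per group over 12 libraries, and nucleotides with edgeR 4.0.16, offset by the flanking mean, with DESeq2 1.42.0 as an alternative. Both were tested on simulated data with independent errors, which lack the correlations seen between libraries of a set. There limma recovered 72.6% of shifts of 0.1 and 90.0% of shifts of 0.2, with 1.0% and 1.2% false calls. In each run 10 of the 55 sites were shifted together, all to lower scores, and the scores had no cap at 1. Recovery of a single shift or of a shift upward was not tested. edgeR recovered 94% of changes to 0.5-fold and 100% of changes to 2, 4 and 0.25-fold. Of the 5318 nucleotides 200 were changed, and 14 false calls fell among those left unchanged. Ratios and regional shares were put to exact permutation tests, two-sided, over 20 splits. Sites were named when they passed, had an unadjusted p under 0.05, were among the 10 largest differences, were named by the study, or differed from the overview; 25S C2959, G2395 and 18S G1271 were added. From the scan, the 5 nucleotides of smallest edgeR p in each direction outside the listed sites were picked. Of these, only the 8 that DESeq2 called are described. 18S G1777 and 25S G1658 did not pass (DESeq2 adjusted p = 0.112 each). Members, lists, tests and this rule were chosen with earlier results of these data known. Design planned 10 ratios, but U14 and U3 had too few read ends. Replicates are not paired between the compared groups. Precision is that of 3 libraries a group.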

Additional observations from a re-analysis of the deposited data

How the results depend on the processing

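No site passed under any fit of the direct comparison, which included the 6 libraries alone, log2 ratios, equal flanking weights, 4 flanking nucleotides, 5′ or 3′ read ends alone, edgeR, and each library left out. The number of intervals within 0.1 of 0 was 33 to 38 with a library left out, 53 with 5′ and 27 with 3′ read ends. A replicate block over all 12 libraries gave 0 sites and 38 such intervals, a block on the 6 libraries 0 and 37, and a random replicate block within sets 0 and 38; the compared groups share only a number (correlations -0.113, -0.0345 and -0.0506). Comparing strains within sets with a replicate block, added after seeing the data, called 2 sites, 2 with 5′ read ends, and 1 nucleotide of the scan. That nucleotide, A436, was 1 of the 2 sites. DESeq2 called 8 nucleotides where edgeR called 0 in every fit of the direct comparison. The cause was not tested.

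Of 288 single-site values under alternatives, 252 kept their direction and their side of the threshold, 4 passed only within sets (A436 at -0.122 and -0.108, C2948 at -0.187 and -0.172) and 32 changed sign. With 5′ read ends alone these were G1572 (-0.0247), G2922 (-0.0085), A2640 (0.0230) and G1271 (-0.0059), and with 3′ read ends A541 (0.0020). With overview means they were U2421 (-0.0147), C414 (-0.0365) and A807 (0.0011). Within sets they were C414 (-0.0017), A807 (0.0258), G2922 (-0.0125), C2197 (0.0111), A2640 (0.0151), C2959 (0.0171), G1271 (-0.0049) and A541 (0.00096), and within sets with 5′ read ends G1572 (-0.0254), C414 (-0.0052), G2922 (-0.0054), A2640 (0.0702) and G1271 (-0.0090). With 1 library left out, A807 ranged from -0.128 to 0.0066, U2347 from -0.0227 to 0.0839, A2640 from -0.0186 to 0.0203, C2959 from -0.0509 to 0.0089, G1271 from -0.0011 to 0.0298 and A541 from -0.0710 to 0.0570. The 18S median ranged from -0.0076 to 0.0013.

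Of 63 values for RNA ratios, 8 changed sign, all for 25S (log2 0.0902 as a share of all read ends, -0.0587 to 0.0319 with 1 library left out) and U4 (-0.0033 with 3′ read ends, -0.11 to 0.12 with 1 left out). The 5.8S log2 difference ranged from -0.78 to -0.49, U1 from 0.14 to 0.25 and U2 from 0.16 to 0.20. Of 80 regional values 14 changed sign, 13 of them with 1 library left out, in percentage points. From the 5′ end, the 3 regions of the 18S rRNA ranged from -0.966 to 1.70, from -0.231 to 0.795 and from -2.14 to 0.474. In the 25S rRNA the first region ranged from -1.05 to 0.407, the next from -0.258 to 0.222 (0.0494 with 5′ read ends), the third from -0.883 to 0.520 and the sixth, with C2948, from -0.232 to 0.189. With 3 libraries a group and scores that spread between them, these data limit what single sites can show. The largest SD at a site was 0.155 in Δdbp7 + Dbp7DQGD and 0.151 in Δdbp7 + EV.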
